A study of Mus musculus with 16 samples.

Results

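Creb3l3, Hadha, Cyp4a14, Slc27a2 and Acot3 are liver-enriched or liver-active genes tied to peroxisome proliferator-activated receptor alpha (PPAR alpha) and to the oxidation of fatty acids. They were chosen by symbol, and are 5 of the 9026 genes named on the array and 6 of its 20794 rows, because Acot3 has a pair of rows. RNA was compared from whole brain and whole liver of 4 male mice, strain C57BL/6J, 18 weeks old and of genotype HdhQ111/+, that is, heterozygous for a knock-in allele of the huntingtin gene whose CAG repeat is expanded. The control for each tissue was an RNA pool from 4 wildtype males of the same strain and age. Every mutant RNA was hybridised against that pool on 2 cDNA arrays with the dyes swapped, which gave 8 arrays per tissue and 16 in all, and the same 4 mice gave both tissues. No treatment was given in the labels. The value of a mouse was the mean log2 ratio of its 2 arrays. A ratio below 0 means less signal in HdhQ111/+ than in the pool; that sign is likely from the channel order of the labels and the design text, and base 2 was assumed. A ratio to the same tissue carries no level, so neither the labelled tissue nor the level of a gene in it could be checked against marker genes.

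PPAR alpha is a nuclear receptor that binds fatty acids and their derivatives, pairs with the retinoid X receptor, and in hepatocytes raises transcription of genes for fatty acid uptake, activation, oxidation and ketone body synthesis, most of all during fasting. Long-chain fatty acids are activated to acyl-CoA, carried into mitochondria through carnitine and shortened by beta oxidation. Very long chains are first shortened in peroxisomes, and omega hydroxylation in the endoplasmic reticulum is a side route. Brain uses glucose and ketone bodies as its main fuels and oxidises little fatty acid, so it served as the contrast tissue.

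The PPAR alpha heterodimer is known to bind a direct repeat of the hexamer AGGTCA with 1 base between the copies. RefSeq start-site windows (build GRCm38.p6), which run from 250 bases before to 50 bases after an annotated start, were found for 4 of the 5 genes and numbered 6, since Creb3l3 and Acot3 each have a pair of starts. Both strands were searched for the exact hexamer (AGGTCA, or TGACCT on the other strand) and for the direct repeat with at most 2 mismatches. The 3 windows below are shown because they hold a match, which is in capitals. The window of Slc27a2 is chr2:126552774-126553073 on the plus strand, that of the downstream Creb3l3 start is chr10:81092542-81092841 on the minus strand, and that of the upstream Acot3 start is chr12:84051894-84052193 on the plus strand.
Slc27a2: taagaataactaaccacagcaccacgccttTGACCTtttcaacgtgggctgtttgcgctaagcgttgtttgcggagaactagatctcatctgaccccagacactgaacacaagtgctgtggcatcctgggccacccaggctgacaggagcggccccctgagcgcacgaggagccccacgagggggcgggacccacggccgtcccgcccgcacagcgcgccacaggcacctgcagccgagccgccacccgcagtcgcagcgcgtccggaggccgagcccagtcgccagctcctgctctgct
Creb3l3: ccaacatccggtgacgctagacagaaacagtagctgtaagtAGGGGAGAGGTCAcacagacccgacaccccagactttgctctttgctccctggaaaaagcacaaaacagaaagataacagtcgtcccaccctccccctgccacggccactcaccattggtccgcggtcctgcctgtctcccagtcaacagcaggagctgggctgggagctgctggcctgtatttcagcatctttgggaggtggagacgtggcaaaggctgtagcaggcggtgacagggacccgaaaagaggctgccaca
Acot3: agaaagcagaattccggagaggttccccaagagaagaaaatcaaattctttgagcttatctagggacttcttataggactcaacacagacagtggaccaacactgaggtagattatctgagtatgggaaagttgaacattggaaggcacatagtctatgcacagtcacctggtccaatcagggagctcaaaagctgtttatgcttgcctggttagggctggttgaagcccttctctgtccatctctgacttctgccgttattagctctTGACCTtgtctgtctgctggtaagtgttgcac
The exact hexamer was in 4 of the 6 windows, against 16.3% of 32851 windows of all genes. In Slc27a2 its leftmost base is at position -220 from the start, and it reads on the minus strand. In Acot3 its leftmost base is at position 19 from the upstream start, also read on the minus strand, and the second Acot3 window overlaps the first and holds the same match. In Creb3l3 the capitals span a direct repeat with 2 mismatches whose first base is at position -209, and its downstream copy is the exact hexamer. That was the only direct repeat found in the 6 windows, against 3.86% of all windows and 16 of 139 windows (11.5%) of the other pathway genes described later. The exact hexamer was in 30 of those 139 windows (21.6%). No match was found in the window of Hadha or in that of the upstream Creb3l3 start. A match of letters is a description of the window and not a site shown to be bound.

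In liver, 4 of the 6 rows were below the wildtype pool in all 4 mice, with mean ratios of 0.784 to 0.850 on the linear scale. They were the single rows of Creb3l3, Hadha and Slc27a2 and one row of Acot3. Over all 20127 rows tested in liver, 12.7% were below 0 in every mouse with a value. None of the 6 rows passed Benjamini-Hochberg adjustment over all rows in limma, nor did any other row in liver (0.0% called). At an unadjusted p under 0.05 in limma, 4 of the 6 rows were called, against 7.0% of all rows. The genes were proposed with earlier results of these data known, so these counts describe the rows and are not independent evidence. With 4 mice the smallest two-sided p of an exact sign-flip permutation test is 0.125, which those 4 rows reached.

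**Figure D1:**
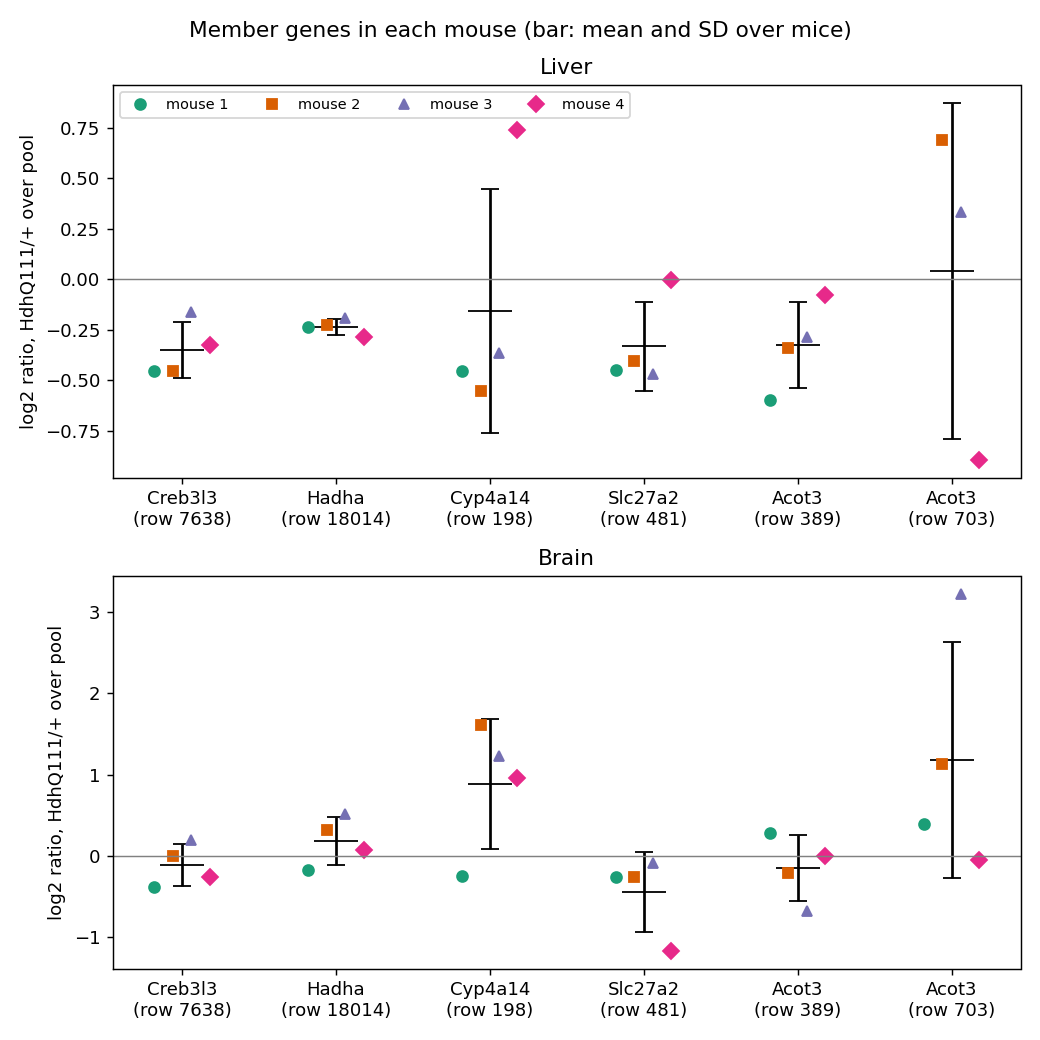
Log2 ratio of HdhQ111/+ over the wildtype pool (vertical axis) for each row of the member genes, in liver (top) and brain (bottom), on separate vertical scales. Each symbol is 1 mouse, the mean of its 2 dye-swapped arrays, and the bars are the mean and SD over mice (4 mice, 3 for Acot3 row 703 in liver); Creb3l3, Hadha, Slc27a2 and Acot3 row 389 lie below 0 in every liver, while in brain only Slc27a2 does.

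Creb3l3 encodes a transcription factor held in the endoplasmic reticulum membrane of hepatocytes, released by cleavage and known to act with PPAR alpha in fasting. Its liver log2 ratios were -0.46, -0.46, -0.16 and -0.33 in mice 1 to 4. All 4 were below 0, and mouse 3 lay nearest to it. The mean was -0.35 ± 0.14 (SD, n = 4), with a 95% interval in limma of -0.60 to -0.10 and an adjusted p of 0.636. Creb3l3 had the lowest mean of the 6 rows, although the intervals of all 6 overlapped and no order among them is read. In brain its log2 ratios were -0.39, -0.0015, 0.19 and -0.27, on both sides of 0, with a mean of -0.12 ± 0.26 (SD, n = 4).

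Hadha encodes the alpha subunit of the mitochondrial trifunctional protein, which carries out the hydration and dehydrogenation steps for long-chain acyl-CoA in beta oxidation. Its liver log2 ratios were -0.23, -0.22, -0.19 and -0.29 in mice 1 to 4. The 4 mice lay close together: only 0.661% of the rows tested in liver had an SD as small as that of Hadha. The mean was -0.23 ± 0.04 (SD, n = 4), with a 95% interval in limma of -0.45 to -0.02 and an adjusted p of 0.636. That interval is wider than the 4 values alone would give, because limma draws each row's spread towards that of the other rows. In brain the log2 ratios were -0.18, 0.32, 0.51 and 0.0685, above 0 in 3 of 4 mice, with a mean of 0.18 ± 0.30 (SD, n = 4).

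Slc27a2 encodes a fatty acid transport protein that is also a very long-chain acyl-CoA synthetase, found at the plasma membrane, the endoplasmic reticulum and peroxisomes. Its liver log2 ratios were -0.45, -0.41, -0.47 and -0.005 in mice 1 to 4. The first 3 mice formed a tight group and mouse 4 was level with the pool. The mean was -0.33 ± 0.22 (SD, n = 4), with a 95% interval of -0.63 to -0.04 and an adjusted p in limma of 0.636. In brain its log2 ratios were -0.27, -0.26, -0.0885 and -1.17. Mouse 4 was here the lowest, so the mouse that stood apart in liver did so in brain in the opposite direction. The brain mean was -0.45 ± 0.49 (SD, n = 4), or -0.20 without mouse 4. Slc27a2 was the single row of 6 that was below 0 in every brain, against 5.7% of all rows tested there.

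Acot3 encodes a peroxisomal thioesterase that splits long-chain acyl-CoA into free fatty acid and CoA, and in mouse it lies in a cluster of closely related thioesterase genes. A cDNA probe may also take up RNA of such paralogs, so its values are uncertain as those of Acot3 alone. On row 389 the liver log2 ratios were -0.60, -0.34, -0.28 and -0.0795 in mice 1 to 4, all below 0. The mean was -0.32 ± 0.21 (SD, n = 4), with a 95% interval of -0.61 to -0.04 and an adjusted p in limma of 0.636. On row 703 mouse 1 had a value on 1 array only, at 3.997, and was left out of the fit. The other mice had 0.69, 0.33 and -0.90 there, a mean of 0.04 ± 0.83 (SD, n = 3) with an adjusted p in limma of 0.967. The interval of row 703, -0.86 to 0.95, holds that of row 389, and the SD of row 703 was larger than that of 94.5% of the rows tested. In brain, row 389 had 0.28, -0.21, -0.69 and -0.009, and row 703 had 0.39, 1.14, 3.23 and -0.0555. The brain means were -0.16 ± 0.41 for row 389 and 1.18 ± 1.46 for row 703 (SD, n = 4 each).

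Cyp4a14 encodes a microsomal cytochrome P450 that hydroxylates fatty acids at the omega end and is among the genes that PPAR alpha raises most in rodent liver. Its close relatives in the Cyp4a family could also bind to the probe. The liver log2 ratios were -0.46, -0.55, -0.365 and 0.74 in mice 1 to 4. Mice 1 to 3 were below the pool and mouse 4 was above it on both of its arrays, at 0.955 and 0.53. The mean was -0.16 ± 0.60 (SD, n = 4) and the adjusted p in limma was 0.805. Without mouse 4 the mean was -0.46, against means of -0.0593, -0.0267 and -0.0895 without mouse 1, 2 or 3. In brain the log2 ratios were -0.26, 1.61, 1.23 and 0.95, with a mean of 0.88 ± 0.81 (SD, n = 4) and a 95% interval of 0.05 to 1.71. Cyp4a14 was the only one of the 6 rows at an unadjusted p under 0.05 in brain, against 3.5% of all rows, and its adjusted p in limma was 0.998. No row passed in brain (0.0% called).

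The orientation of the dyes moved with several of these values. In liver, 37 of the 47 single-array values of the 6 rows were below 0, 15 of them on arrays with the mutant RNA in Cy5 and 22 on arrays with it in Cy3. Creb3l3 averaged -0.0848 in Cy5, where 3 of 4 mice were below 0, and -0.62 in Cy3, where all 4 were. Slc27a2 averaged -0.00425 in Cy5, where 2 of 4 mice were below 0, and -0.66 in Cy3, where all 4 were. For both genes the mean below 0 in liver thus came mostly from one orientation. Hadha, at -0.15 in Cy5 and -0.32 in Cy3, and Acot3 row 389, at -0.24 and -0.41, were below 0 in 3 of 4 mice in Cy5 and in 4 of 4 in Cy3. Cyp4a14 averaged 0.11 in Cy5 and -0.42 in Cy3. In brain the gap was widest for Cyp4a14, at 1.81 in Cy5 and -0.046 in Cy3, and its highest single array, mouse 2 in Cy5, read 3.67. Acot3 row 703 averaged 1.82 in Cy5 and 0.53 in Cy3 in brain, and its highest single array read 4.67. Averaging the swapped arrays cancels a dye effect that is equal and opposite on both, and the part of other dye effects in these means was not tested.

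**Figure D2:**
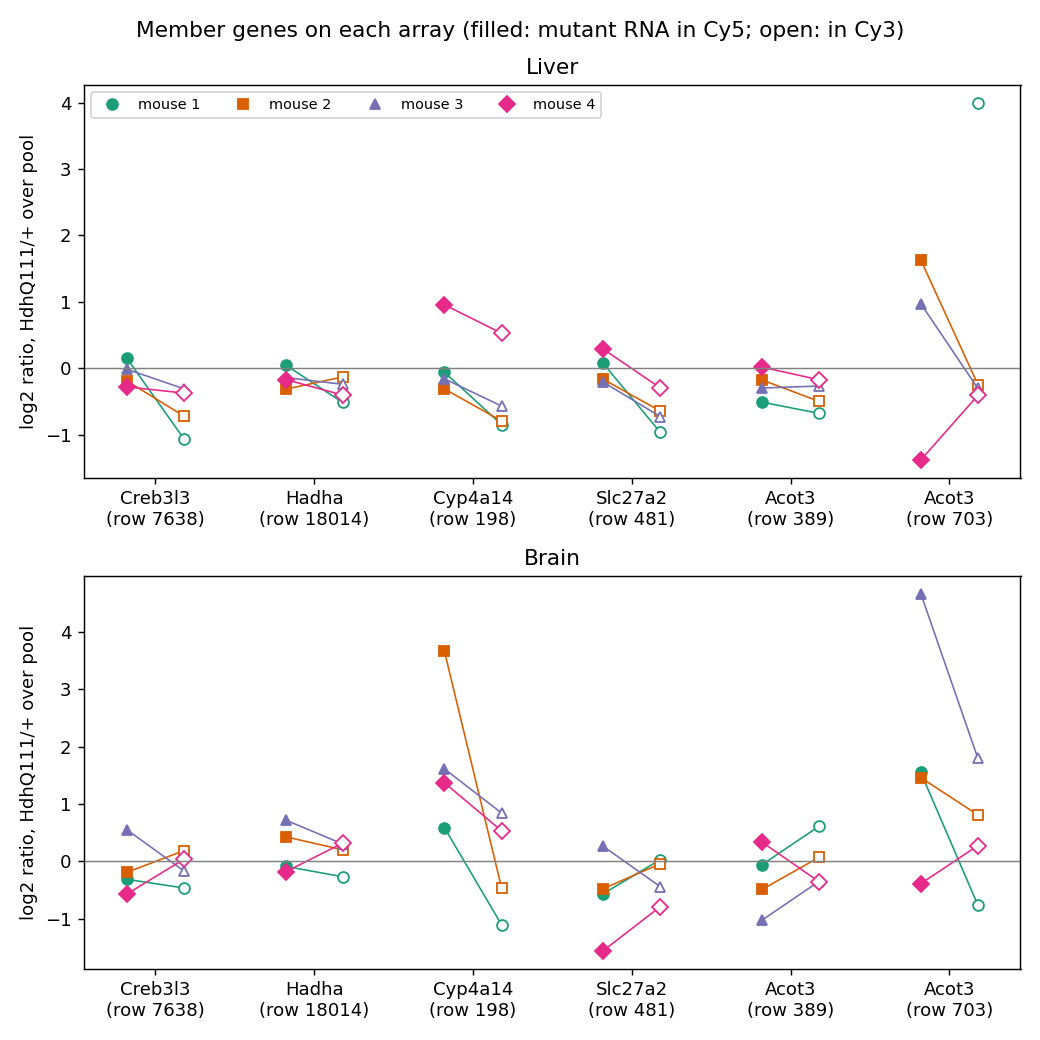
Log2 ratio of HdhQ111/+ over the wildtype pool (vertical axis) on every single array, liver on top and brain below. Filled symbols are arrays with the mutant RNA in Cy5 and open symbols arrays with it in Cy3, joined for each mouse; in liver the open symbols of Creb3l3 and Slc27a2 lie lower than the filled ones in every mouse, and mouse 4 is above 0 on both arrays for Cyp4a14.

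The liver minus brain difference in log2 ratio was compared over the 8 mouse values in limma. Hadha differed by -0.41 ± 0.17 (SE) and Cyp4a14 by -1.04 ± 0.44 (SE), both lower in liver in 4 of 4 mice. These were the 2 of 6 rows with an unadjusted p under 0.05, against 6.47% of all rows, and both had an adjusted p of 0.739 in limma. The Cyp4a14 difference was -1.71 on Cy5 arrays alone and -0.38 on Cy3 arrays alone. Creb3l3 was also lower in liver in 4 of 4 mice, by -0.24 ± 0.17 (SE), with an adjusted p of 0.763 in limma. Slc27a2 had a mean below 0 in both tissues, neither past the adjusted threshold, and its 95% interval in brain was -0.99 to 0.10. Its liver minus brain difference was 0.11 ± 0.25 (SE) with a 95% interval of -0.47 to 0.70. For Acot3 the difference was -0.17 ± 0.23 (SE) on row 389 and -1.13 ± 0.79 (SE) on row 703. When mouse 1 kept its single array on row 703, that difference was -0.14 and the liver mean 1.03. None of the 6 rows passed, and 1 of 19055 rows did (0.00525%). With the mouse as a block, since the 4 mice gave both tissues, none of the 6 rows passed either, and the lowest adjusted p among them in limma was 0.762. The unadjusted p of that limma fit was 0.0598 for Hadha, no longer under 0.05, and 0.0439 for Cyp4a14.

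The other genes of the pathway were taken from a list of 141, of which 91 were named on the array and 88 were tested in liver, after averaging the rows of a gene. Of those 88 genes, 69 had a liver mean below 0 (78.4%), against 56.8% of all 8828 named genes tested. The median was -0.12, against -0.0306 for all named genes. In 22 of the 88 every mouse with a value was below 0, against 14.1% of all named genes. None passed the adjusted threshold in limma. At an unadjusted p under 0.05, 11 of the 88 were lower, against 4.96% of all named genes, and 1 was higher, against 2.64%. The direction differed with the dyes: on Cy5 arrays alone 42 of 91 were below 0, with all named genes at 49.5%, and on Cy3 arrays alone 67 of 88 were, with all named genes at 56.4%. In brain 28 of 86 tested genes were below 0 (32.6%), against 43.1% of all named genes, with a median of 0.04 against 0.0243, and none passed. The liver minus brain difference was below 0 for 67 of 86 genes, against 57.8% of all named genes, and none of the 86 passed.

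**Figure D3:**
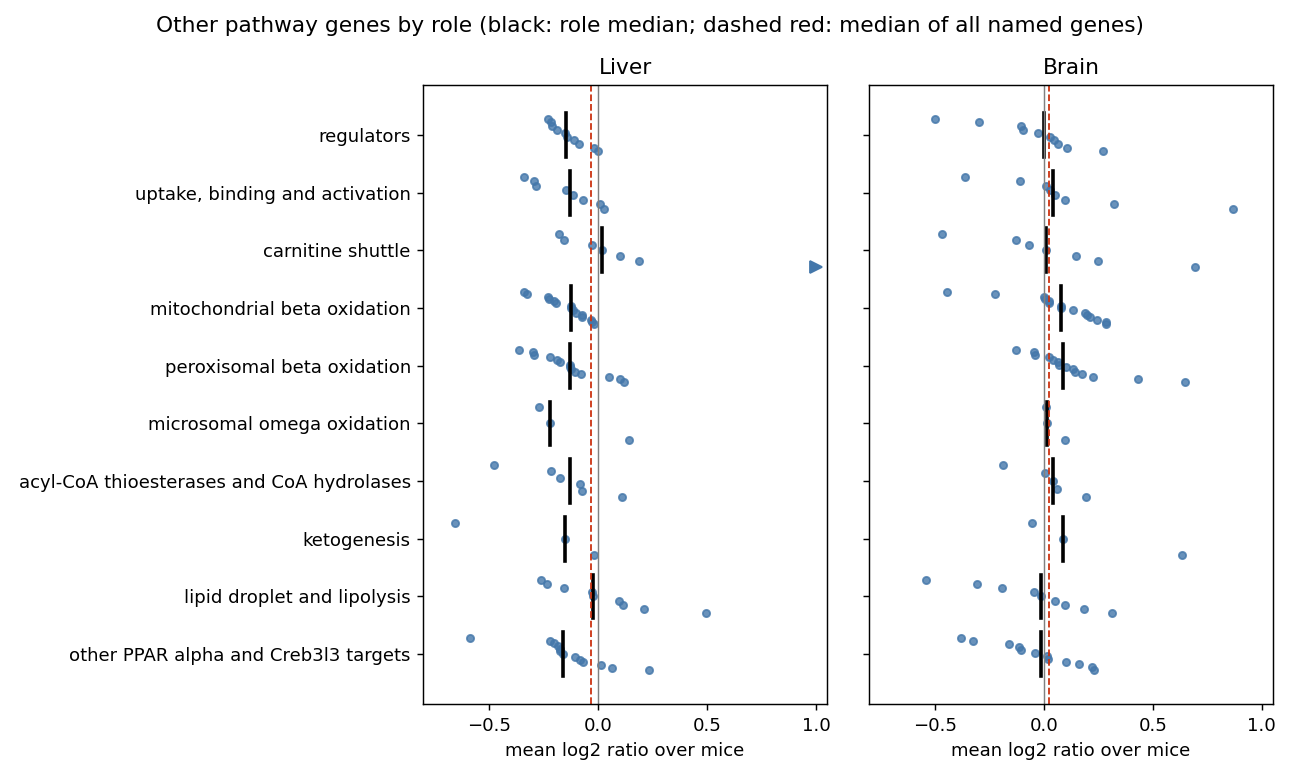
Mean log2 ratio over mice (horizontal axis) of each tested pathway gene, grouped by role, in liver (left) and brain (right). Black bars are role medians, the dashed red line is the median of all named genes, and the triangle at the right edge stands for Cpt1c in liver, whose mean of 2.62 lies beyond the axis; all 15 genes of mitochondrial beta oxidation lie below 0 in liver, and 13 lie above 0 in brain, while on Cy5 arrays alone (not drawn) 5 of the 15 were below 0 in liver.

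The liver count of each role stands beside 56.8% of all named genes below 0. That share was 49.5% on Cy5 arrays alone and 56.4% on Cy3 arrays alone. Among the regulators, 9 of 10 tested genes had a liver mean below 0 and none passed. On Cy5 arrays alone 4 of 10 were below 0. Ppara, which encodes PPAR alpha itself, had -0.37, -0.32, -0.0902 and -0.14 in the livers of mice 1 to 4, all below the pool, with a mean of -0.23 ± 0.14 (SD, n = 4). Its 5 rows had liver means of -0.16, -0.10, -0.35, -0.32 and -0.21, all below 0, whereas in brain 4 of them were below 0 and spread from -2.29 to 0.17. Rxra, the retinoid X receptor partner, averaged -0.19 ± 0.09 in liver and was below 0 in every mouse. Ppargc1a, a coactivator of PPAR alpha, averaged 0.000125 ± 0.14 in liver (SD, n = 4).

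Of the genes for uptake, binding and activation, 6 of 8 were below 0 in liver, and on Cy5 arrays alone 4 of 9 were, with a median of 0.0735. Slc27a5, a bile acid and very long-chain acyl-CoA synthetase, averaged -0.34 ± 0.35, Slc27a4, another fatty acid transport protein, -0.0704 ± 0.23, and Acsl4, a long-chain acyl-CoA synthetase, -0.15 ± 0.21 (SD, n = 4 each). In the carnitine shuttle group only 3 of 7 tested genes, of 11 listed, were below 0. Cpt1a and Slc25a20 were listed and had no tested value. Cpt2, the inner membrane carnitine transferase, averaged 0.10 ± 0.48, Crat, carnitine acetyltransferase, -0.16 ± 0.24, and Slc22a5, the carnitine transporter, -0.18 ± 0.15 in liver. The median of the group was 0.0196, above that of all named genes. That median was the value of Acacb. Acacb and Mlycd were listed with the shuttle but are not themselves carnitine transferases or transporters. The highest liver mean of the whole list was also in this group, Cpt1c, at 2.62 ± 3.63 (SD, n = 4). Mouse 3 read 8.06 and the others 0.53 to 1.07, so that mean rests mostly on mouse 3. Cpt1c was picked out after its values were seen, and whether its liver signal lay above background was not examined.

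All 15 tested genes of mitochondrial beta oxidation, the route in which Hadha works, had a liver mean below 0, with a median of -0.12 and none past the adjusted threshold. In brain 2 of the 15 were below 0 and the median was 0.0809. In only 1 of the 15 was every liver below 0, so the group count rests on means and not on each mouse. It also moved with the scaling and the dyes: 11 of 15 were below 0 in liver with the arrays centred and scaled to a common spread, 13 of 15 on Cy3 arrays alone and 5 of 15 on Cy5 arrays alone, where the median was 0.0615. The medium-chain, very long-chain and long-chain acyl-CoA dehydrogenases Acadm, Acadvl and Acadl averaged -0.0993 ± 0.23, -0.0305 ± 0.32 and -0.20 ± 0.20 in liver (SD, n = 4 each). In brain their means were 0.24, 0.20 and 0.0809. The one gene below 0 in every liver was Acads, the short-chain dehydrogenase, named after its values were seen, at -0.23 ± 0.07 in liver and 0.28 ± 0.18 in brain.

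Of the peroxisomal genes, 11 of 14 were below 0 in liver and 3 of 14 in brain. On Cy5 arrays alone the liver count was 6 of 15, and on Cy3 arrays alone it was 12 of 14. Acaa1a, a peroxisomal thiolase, averaged -0.36 ± 0.24 in liver and 0.22 ± 0.23 in brain, a difference of -0.59 ± 0.17 (SE) with an adjusted p of 0.708 in limma at the gene level. Its sister gene Acaa1b averaged -0.30 ± 0.34 in liver and 0.14 ± 0.47 in brain, and the near-identical pair may share signal. Hsd17b4, the peroxisomal multifunctional enzyme, averaged 0.10 ± 0.26 in liver, where its rows had means of 0.40 and -0.19. In microsomal omega oxidation, the route of Cyp4a14, 3 of 10 listed genes were tested, none of them from the Cyp4a family. Of these, 2 of 3 were below 0 in liver. They were Aldh3a2, a fatty aldehyde dehydrogenase, at -0.27 ± 0.29 and the P450 gene Cyp4f14 at -0.22 ± 0.09, while Cyp4b1 was at 0.14 ± 0.21 (SD, n = 4 each).

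Among the acyl-CoA thioesterases and CoA hydrolases, the group of Acot3, 5 of 6 genes were below 0 in liver. Acot12 averaged -0.17 ± 0.24, Acot13 -0.21 ± 0.12 and Acot7 -0.0724 ± 0.26 (SD, n = 4 each). The lowest of the group was Nudt7, a peroxisomal CoA diphosphatase picked out after its values were seen, at -0.48 ± 0.14 with an adjusted p of 0.598 in limma. In ketogenesis and ketone transport 3 of 3 genes were below 0 in liver: Bdh1 at -0.15 ± 0.12, Bdh2 at -0.0156 ± 0.18 and the monocarboxylate transporter Slc16a1 at -0.65 ± 0.95. The last value rests on mouse 1, at -2.03. On Cy3 arrays alone 1 of the 3 was below 0 and the median was 0.0203.

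Lipid droplet and lipolysis genes were split, with 5 of 9 below 0 in liver. Pnpla2, the triglyceride lipase that starts the breakdown of stored fat, had 0.83, 0.56, 0.18 and 0.40 in the livers of mice 1 to 4 and was above the pool in all of them. Its mean was 0.49 ± 0.28 (SD, n = 4) in liver and -0.19 ± 0.36 in brain, and it was the one gene of the list that was higher at an unadjusted p under 0.05, with an adjusted p of 0.598 in limma. The droplet coat gene Plin2 averaged -0.16 ± 0.11 and Cidec 0.11 ± 0.71 in liver. Of the other targets of PPAR alpha or Creb3l3, 10 of 13 were below 0 in liver, and 6 of 13 on Cy5 arrays alone. Angptl4, a lipoprotein lipase inhibitor, averaged 0.0158 ± 0.28, and the apolipoprotein genes Apoa4 and Apoa1 averaged 0.0629 ± 0.28 and -0.20 ± 0.21 (SD, n = 4 each). Of the 30 pathway genes named by rule, 22 were below 0 in liver, and 11 had more than 1 row, of which 5 had rows on both sides of 0 in liver (Acadm, Acot7, Hsd17b4, Ppargc1a and Slc27a4).

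The list median was also taken in each mouse, with no test of the mice against each other. The median over the pathway genes in liver was -0.22, -0.21, -0.10 and -0.0005 in mice 1 to 4, against -0.0744, -0.042, -0.0225 and -0.0045 over all named genes. Mouse 4 had the list median nearest to 0, and it was also the highest of the 4 in liver for Slc27a2, Cyp4a14 and row 389 of Acot3, although it was the lowest for Hadha and for row 703 of Acot3. The spread of the liver arrays fell in the same order of mice. Interquartile ranges in Cy5 and Cy3 were 0.867 and 1.28 in mouse 1 and 0.501 and 0.728 in mouse 2. They were 0.465 and 0.588 in mouse 3 and 0.427 and 0.383 in mouse 4. The part of array spread in the liver list medians was not tested. In brain the list medians were -0.10, 0.02, 0.13 and 0.033, against -0.0996, 0.0085, 0.15 and 0.0398 over all named genes.

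**Figure D4:**
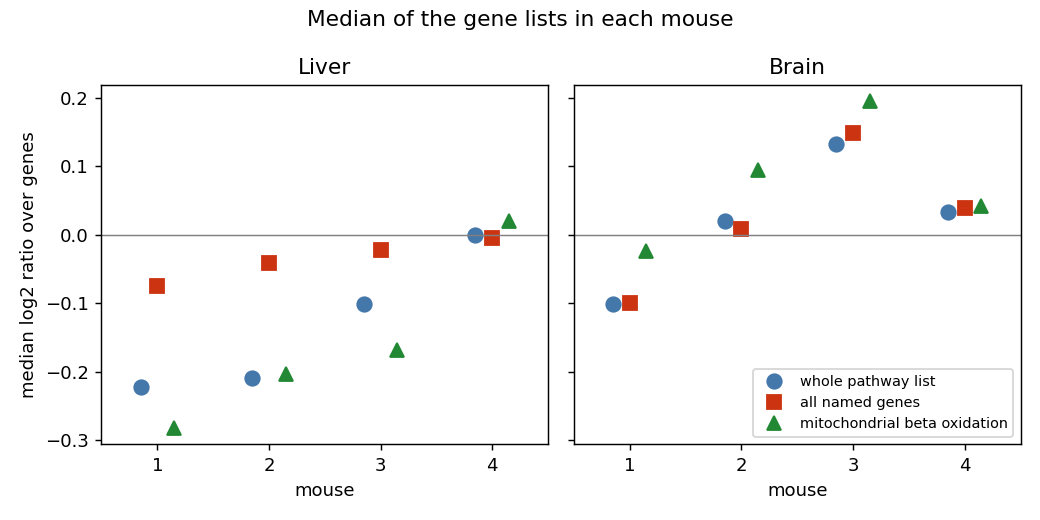
Median log2 ratio over genes (vertical axis) in each of the 4 mice (horizontal axis) for the pathway list, its mitochondrial beta oxidation genes and all named genes, in liver (left) and brain (right). In liver the pathway list lies below all named genes in mice 1, 2 and 3 and level with them in mouse 4, and in brain the pathway list follows all named genes.

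Markers of hepatocytes, the cells in which most of these genes are active, were compared beside the pathway genes, and none passed. Of 10 listed hepatocyte markers 5 were tested, and all 5 had a liver mean below 0, against 56.8% of all named genes. Their median was -0.18, against -0.0306 for all named genes, and gene means ran from -0.30 (Hpd) to -0.005 (Alb). The mouse medians of these markers were -0.14, -0.25, 0.0145 and -0.044 in mice 1 to 4. By these medians the highest mouse was mouse 3 for the markers and mouse 4 for the pathway list. Single markers were mixed, with mouse 3 the highest for Alb, Tat and Arg1 and mouse 4 for Ttr and Hpd. No order of the mice is read from so few genes. Endothelial markers were below 0 in 4 of 4 with a median of -0.15, adipocyte markers in 5 of 6 with a median of -0.11, macrophage markers in 4 of 6 with a median of -0.0896, stellate markers in 3 of 6, cholangiocyte markers in 2 of 5, blood markers in 2 of 5 and pancreas markers in 1 of 2. Their part in the result was not tested. In RNA of a whole organ, fewer cells of a type and less RNA per cell cannot be told apart.

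The 5 members did not all vary together. Over the 8 mouse-by-tissue values, Pearson's r between pairs of members ran from 0.057 for Hadha and Slc27a2 to 0.90 for Creb3l3 and Hadha. The mean of the 5 members was -0.44, -0.29, -0.23 and -0.0738 in the 4 livers and -0.15, 0.42, 0.62 and -0.0900 in the 4 brains. In the r values and in this mean, Acot3 was the average of its rows, and in the liver of mouse 1 row 389 alone. The rows were far apart in the brain of mouse 3, at -0.69 on row 389 and 3.23 on row 703. The mean in brain thus depends on the widely spread row 703. It depends as well on Cyp4a14, which read -0.26, 1.61, 1.23 and 0.95 in the brains of mice 1 to 4. Among 7498 other genes with all 8 values, those most like that mean were C1qb (r = 0.978), Cldn19 (0.973), Gigyf2 (0.969), Tpt1 (0.966) and Mdh1 (0.966). None of the 5 is in the pathway list, and C1qb is one of the macrophage markers counted above. They were picked as the highest r among 7498 genes, so the size of r is no evidence of a link. Each r describes 8 values that share a wildtype pool within a tissue and a mouse between tissues.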

How the data were processed

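The log2 ratios of 20794 probes on each of the 16 arrays were deposited by the authors as normalized values. How they were background-corrected, normalized and filtered is not given in the sources used here, and base 2 was assumed. Per the labels' protocols, Cy3 and Cy5 were coupled by indirect labelling of reverse-transcribed total RNA. Arrays held 19530 to 20584 values, with interquartile ranges of 0.383 to 1.28. The replicate is the mouse, with 4 per tissue, and the 2 arrays of a mouse are dye swaps. Precision is thus limited by the number of mice. Probe names were moved by 11 rows, an offset chosen after the data were seen that no source states; the median SD of ribosomal protein probes was 0.433 with it and 0.562 without. Arrays of one tissue and dye orientation correlated by 0.0832 to 0.386, and swapped arrays of one mouse by -0.263 to -0.0861. The dye difference was shared between tissues (Spearman's rho 0.423 over 15077 probes) and the pair mean was not (rho -0.0299), so pair means were taken as the ratio to the pool.

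A mouse's value was the mean of its 2 arrays, both required, and a row needed 3 mice. Means were tested against 0 with limma 3.58.1 in R 4.3.3 (lmFit, eBayes, two-sided), over all rows with Benjamini-Hochberg adjustment at 0.05. The pool is 1 control sample, so the tests leave out the spread among wildtype mice. Fits were tested on simulated data. Tissues were compared with and without the mouse as a block, since the labels give the same mice; Spearman's rho between a mouse's brain and liver deviations was 0.0712, -0.0036, 0.103 and 0.0241, and with other livers -0.0308 to 0.0092. Named pathway genes were the first 3 tested of each role. Members and lists were chosen with earlier results of these data known. Alternatives covered dye orientation, centring, scaling, very large ratios, missing values, averaging of probes, names and single mice.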

Additional observations from a re-analysis of the deposited data

Results flagged for a closer look

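Of 67 groups of 4 mice examined with Dixon's test (the members' rows and the named pathway genes, by tissue), 7 held a mouse whose gap to the next value took an unusually large share of the group's range. Chance gives about 1 such group in 20. Mouse 4 stood apart in 3 of them: Cyp4a14 in liver was 0.74, above the other mice, Slc27a2 in liver was -0.005, above the other mice, and Slc27a2 in brain was -1.17, below them. Mouse 1 was low for Ppara in brain, at -1.45. Mouse 3 was high for Ppargc1a in brain, at 0.26, and for Acadl in brain, at 0.46. Mouse 2 was low for Acot7 in liver, at -0.46.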

How the results depend on the processing

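Of 238 alternative values of the 6 rows, 69 left the value unmoved and 18 read other rows (names without the offset). Of the 151 others, 138 kept the direction and 13 turned it. None of the 238 passed the threshold (lowest adjusted p in limma 0.187). Liver means of Creb3l3, Hadha, Slc27a2 and Acot3 row 389 kept their sign under every alternative that read the same row. All 4 mice were below 0 for these rows, so leaving out 1 mouse could not turn a sign. Slc27a2 was level with the pool on Cy5 arrays alone, at -0.00425. On Cy5 arrays alone, Cyp4a14 in liver turned to 0.11 and the liver minus brain differences of Creb3l3 and Acot3 row 389 to 0.045 and 0.0655. On Cy3 arrays alone, Cyp4a14 in brain turned to -0.046 and the differences of Slc27a2 and Acot3 row 703 to -0.35 and 0.23. With names as given (no offset, so other rows are read), brain means turned to 0.0891 for Creb3l3, -0.0638 for Hadha and 0.30 for Slc27a2. In liver, Cyp4a14 then read 0.31 and Acot3 row 703 -0.0336, and the differences read 0.29 for Cyp4a14, -0.48 for Slc27a2 and 0.28 for Acot3 row 389. With the Acot3 rows averaged, brain was 0.51 and liver -0.22, which turns row 389 in brain and row 703 in liver.

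Leaving out 1 mouse gave a Slc27a2 difference of -0.24 (without mouse 4) to 0.28. For Acot3 row 389 it gave -0.30 to 0.0202 in brain (the last without mouse 3) and -0.36 to 0.0668 for the difference (the last without mouse 1). For Acot3 row 703 in liver it gave -0.28 (without mouse 2) to 0.51, with -0.10 without mouse 3. Rows past the threshold then numbered 0 to 2 in liver (2 without mouse 1) and 0 to 7 for the difference (7 without mouse 1, 5 without mouse 2, 2 without mouse 4 and 0 without mouse 3). In brain they numbered 2 on Cy5 arrays alone and 1 when a mouse kept a single array. For the difference they numbered 2 without values over 10 in size and 0 when all 4 mice were needed. Pathway genes below 0 numbered 42 of 91 in liver on Cy5 arrays alone (46.2%, all named genes 49.5%) and 52 of 87 in brain on Cy3 arrays alone (59.8%, all named genes 59.6%). Without the offset the liver count was 56 of 90 (62.2%, all named genes 54.6%). With the replicate block (paired by mouse), 1 row passed for the difference, as without it; the Acot3 row 703 difference was -1.39, no adjusted call on a member changed, and Hadha was no longer under an unadjusted p of 0.05. With a single array kept, the Acot3 row 703 liver mean was 1.03 and its difference -0.14. The cause of these changes was not tested. Without spot intensities, signal over background was not examined.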
